A study of Mus musculus with 10 samples.

Results

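Hepcidin is the liver hormone that limits how much iron enters the blood. Its genes, the genes that sense, carry and export iron, and the targets of the BMP-SMAD pathway that drives hepcidin were followed in regenerating mouse liver. The 10 genes were taken by name, with no measured value in the rule, as the rows of Hamp, Hamp2, Tfrc, Tfr2, Slc40a1, Trf, Bmp6, Id1, Smad6 and Smad7 in both deposited liver tables. They are 10 of the 55487 gene identifiers in each table. The choice of these genes was made with earlier results of these data known. All 10 passed the filter on low counts in both experiments, among 15589 genes tested in the diet experiment and 15788 in the inhibitor experiment.

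The mice were 8-week-old C57BL/6J, labelled male, and all had undergone partial hepatectomy (PHx), an operation that takes away most of the liver and sets off regrowth of what is left. In the diet experiment, a high-fat diet (HFD) was fed for 7 days ahead of PHx to one group and chow to the other, with 3 libraries each from livers collected at 40 hours. In the inhibitor experiment, SSO at 40 mg/kg or the solvent vehicle alone was given 1 day ahead of PHx, with 4 libraries each from livers collected at 48 hours. SSO is not spelled out in the labels; the name usually stands for sulfosuccinimidyl oleate, which blocks fatty acid uptake by CD36, and the study asked how an inflow of lipid bears on regeneration. The labels give 8 mice per group for the inhibitor experiment, whose table holds 4 columns per group, and do not say whether mice were pooled. No unoperated liver was analysed here, so the values compare regenerating livers only.

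Each diet library held 31.9 to 39.9 M counts and each inhibitor library 25.2 to 30.4 M. Hepatocyte markers were abundant throughout, with Alb at a mean of 45175 CPM (counts per M counts) in chow and 63479 CPM in vehicle livers. The vehicle libraries were unlike each other. The share of counts from mitochondrially encoded genes was 4.99%, 22.5%, 11.5% and 9.15% in vehicle 1 to 4, 15.2% to 17.6% in SSO and 6.56% to 9.96% in the diet experiment, and the summed level of 5 recruited monocyte markers was 267, 28.5, 299 and 54.5 CPM in vehicle 1 to 4 against 8.36 to 18.6 CPM in SSO. The inhibitor libraries went against the label of male mice: Xist, made from the inactive X chromosome, lay at 698 to 1772 CPM in all 8 of them, and 4 Y-linked genes together had 0 counts. In the 6 diet libraries Xist lay at 0 to 0.620 CPM and the same Y-linked genes at 4322 to 6709 counts. The edgeR fit called 249 genes higher and 112 lower in HFD, and 50 higher and 21 lower in SSO. Scaling by library size alone gave 336 and 60, and 33 and 4, and moved the median log2 fold change of all genes from -0.02 to 0.13 in the diet and from -0.04 to -0.20 in the inhibitor comparison. DESeq2 gave 495 higher and 370 lower, and 427 higher and 710 lower.

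Hepcidin is made mainly by hepatocytes. It binds ferroportin, the product of Slc40a1 and the route by which iron leaves cells, and causes its breakdown, so that more hepcidin means less iron in plasma. Hamp transcription follows signals of body iron, carried by BMP6 from sinusoidal endothelial cells through BMP receptors and SMAD proteins and by transferrin receptor 2 and HFE on the hepatocyte, and signals of inflammation, carried by IL-6 through STAT3. The same SMAD proteins switch on Id1, Smad6 and Smad7, the last pair being inhibitors that feed back on the pathway. Mice carry a duplicate of the hormone gene, Hamp2, which lies beside Hamp and whose transcript is known to differ between male and female liver.

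The upstream sequences of the hepcidin genes are shown because both routes to the hormone meet there and because the genes diverged in level between the experiments, as given further on. The RefSeq promoter table (GRCm38.p6) held 9 windows for 6 of the 10 genes. The most distal 240 of the 250 bases before the start site are printed below for Hamp, chr7:30944040-30944279, and for Hamp2, chr7:30924192-30924431, both on the minus strand and written 5′ to 3′. Capitals mark GGCGCC, the core of the known BMP-responsive element of Hamp, or the matching bases of Hamp2, and then the match to TTCNNNGAA, the pattern bound by STAT proteins.
Hamp: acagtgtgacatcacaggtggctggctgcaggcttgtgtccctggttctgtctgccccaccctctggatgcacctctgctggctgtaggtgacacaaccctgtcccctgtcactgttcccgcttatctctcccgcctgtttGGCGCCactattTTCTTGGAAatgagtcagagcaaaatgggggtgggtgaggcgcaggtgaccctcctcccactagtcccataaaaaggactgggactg
Hamp2: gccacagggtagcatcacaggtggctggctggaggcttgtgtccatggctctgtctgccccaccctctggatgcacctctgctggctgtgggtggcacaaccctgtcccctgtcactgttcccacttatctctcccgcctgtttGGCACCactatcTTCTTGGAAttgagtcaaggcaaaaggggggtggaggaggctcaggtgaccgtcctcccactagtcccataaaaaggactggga
The first capital of the BMP element lies 109 bases before the Hamp start site, and that of the STAT pattern 97 bases before it. In Hamp2 they lie 106 and 94 bases before the start site. The stretches were identical at 218 of 237 aligned bases (92.0%), with 19 differences. One of them fell in the BMP element, G145A, where positions count from 1 at the 5′ end of the printed Hamp stretch, the Hamp base comes first and the Hamp2 base last. None fell in the STAT pattern. Searched on both strands of 32851 windows of 250 bases, GGCGCC was in 9.59% and TTCNNNGAA in 7.02%, and 0.368% held both, Hamp among them. Among the other genes with a window, GGCGCC was found before Tfrc, while Hamp2 held TTCNNNGAA only. GTCTAGAC, a palindrome that SMAD proteins bind, was in 0.167% of windows and in none of the windows of the 10 genes. These matches describe letters and not binding. GENCODE M21 also lists a Hamp2 transcript that begins further upstream, of which the printed Hamp2 stretch is intron.

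The genes spanned more than 3 orders of magnitude in level. Compared per exon length, as RPKM (reads per kilobase and per M counts), the order in chow livers began with Trf, the plasma iron carrier transferrin, at 5860 ± 994 (mean ± SD, n = 3). Hamp followed at 1844 ± 1070 and Tfr2 at 166 ± 33.4. The libraries of these 3 genes did not overlap. The rest lay far lower: Id1 at 11.9 ± 4.32, Slc40a1 at 10.2 ± 1.90, Smad7 at 5.02 ± 0.647, Tfrc at 4.10 ± 0.797, Smad6 at 2.76 ± 0.518, Hamp2 at 2.09 ± 0.213 and Bmp6 at 0.719 ± 0.0630 RPKM. Neighbours in that order overlapped for Id1 and Slc40a1, for Smad7 and Tfrc and for Smad6 and Hamp2, so that their order is within the spread between libraries. In SSO livers the levels of Trf (2694 ± 318 RPKM, n = 4) and Hamp (2583 ± 225 RPKM) overlapped, and Hamp2 took the third place at 190 ± 50.6 RPKM, above Tfr2 at 116 ± 8.23 RPKM. In vehicle livers Hamp2 lay at 96.8 ± 57.3 RPKM beside Tfr2 at 107 ± 30.2 RPKM, with overlapping libraries. The tables were scaled separately, so levels of the diet and inhibitor livers are side by side only.

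**Figure D1:**
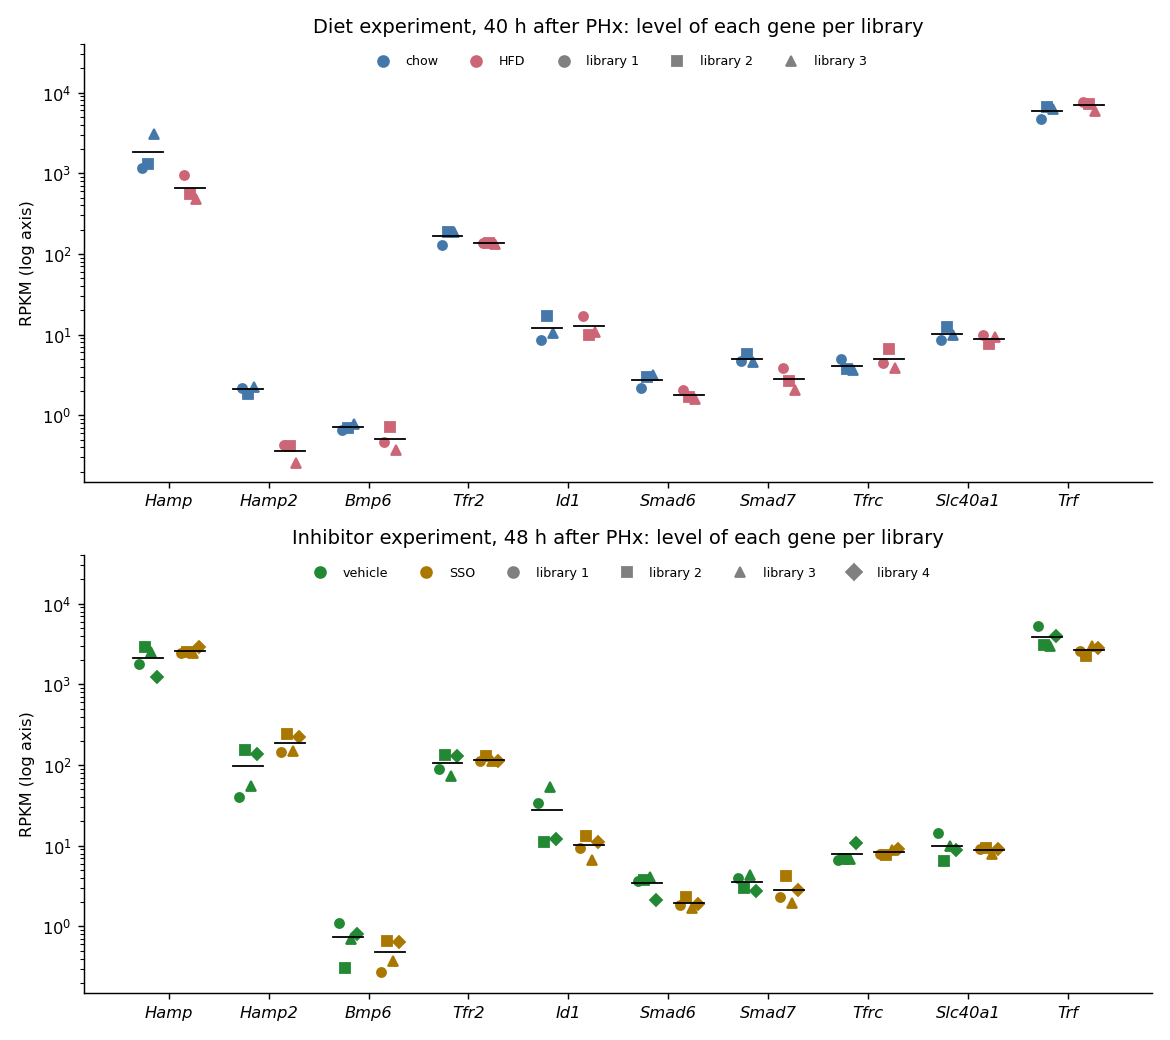
Level of each of the 10 genes in every library, in RPKM on a log axis, for the diet (top) and inhibitor (bottom) experiments; symbols are libraries and bars group means. Trf and Hamp lie highest in both experiments, and Hamp2 lies near 2.09 RPKM in chow livers but at 39.8 to 153 RPKM in vehicle livers.

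In HFD livers the hepcidin genes and the inhibitory SMAD genes lay lower than in chow livers. Both Hamp and Hamp2 and both Smad6 and Smad7 were lower in every HFD library than in any chow library, while Id1, Tfrc, Tfr2, Slc40a1, Trf and Bmp6 overlapped between the diets. The edgeR quasi-likelihood test, with p adjusted by Benjamini-Hochberg over all genes tested and a call at an adjusted p under 0.05, called 1 of the 10 genes, Hamp2, and it fell. Over all genes tested 2.32% were called and 0.718% were called lower. The 4 genes without overlap, all lower, compare with 21.9% of all genes tested without overlap and 10.8% lower without overlap. At an unadjusted p under 0.05 the same 4 of 10 were lower, against 15.0% of all genes tested in either direction. DESeq2 called 2 of the 10 and limma-voom 1, beside 865 of 16153 and 373 of 15589 over all genes tested. The median log2 fold change of the 10 genes was -0.39, beside -0.02 for all genes tested, and 7 of the 10 lay below 0.

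In SSO livers none of the 10 genes was called by edgeR, while 3 had an unadjusted p under 0.05 (Hamp2 higher, Id1 and Smad6 lower). Over all genes tested 0.45% were called, 0.133% were called lower, and 20.5% had an unadjusted p under 0.05. DESeq2 called 2 of the 10, Id1 and Smad6, both lower, and limma-voom called 0. Over all genes tested, DESeq2 called 1137 of 17905 and limma-voom 68 of 15788. The groups overlapped for all 10 genes, where 11.8% of all genes tested had groups that did not overlap. The median log2 fold change of the 10 genes was -0.24, beside -0.04 for all genes tested, and 6 of the 10 lay below 0. The experiments share no library, and a gene that passed the test in one and not in the other was not tested for a difference between them.

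**Figure D2:**
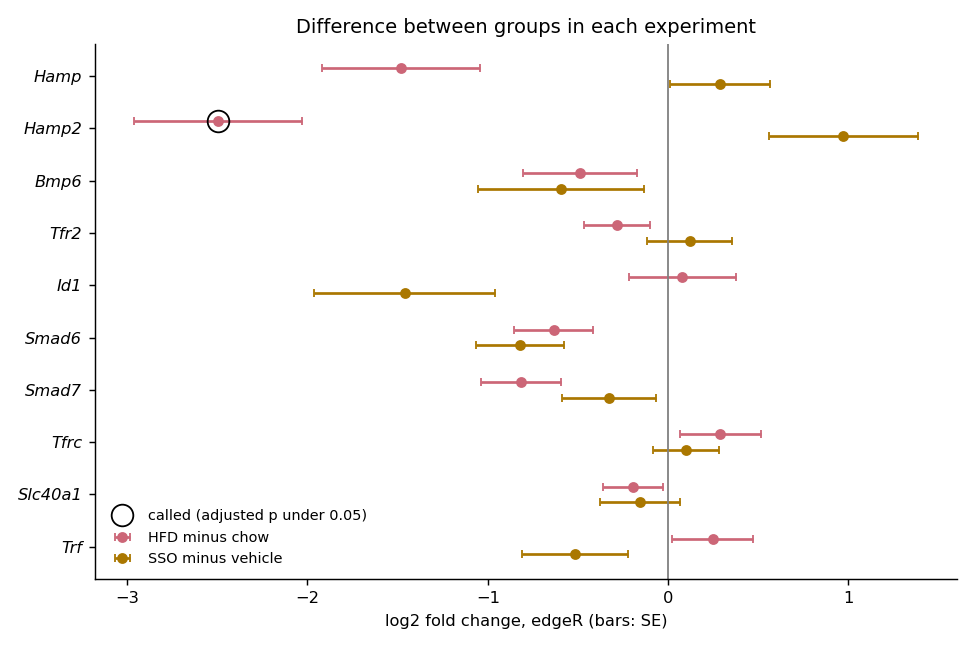
Log2 fold change of each gene with its standard error (edgeR), HFD minus chow and SSO minus vehicle; the ring marks the one called difference, Hamp2 in HFD livers at -2.49. Smad6 and Smad7 lie below 0 in both comparisons, though Smad7 in SSO livers was at -0.03 without vehicle 1 and 3, and Hamp and Hamp2 below 0 in HFD and above 0 in SSO livers.

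Hamp (ENSMUSG00000050440, chromosome 7: 30942368 to 30944032 of GRCm38, minus strand, protein coding) encodes the hormone itself. It measured 471, 536 and 1261 CPM in chow livers 1 to 3 and 386, 228 and 198 CPM in HFD livers 1 to 3. Every HFD library lay below every chow library, and chow 3 stood far above the other chow livers. The mean was 756 ± 439 CPM in chow and 271 ± 101 CPM in HFD (SD, n = 3 each), a log2 fold change of -1.48 ± 0.44 (SE) or a 2.79-fold lower fitted level, which was not called (edgeR unadjusted p = 0.0111, adjusted p = 0.166). Without chow 3 the log2 fold change was -0.90 (edgeR adjusted p = 0.170).

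Chow 3 was also the highest library for 4 genes of the acute phase response, which were chosen after their values were seen. IL-6 drives that response in hepatocytes as it drives Hamp, and Il6 itself had 2, 2 and 1 counts in chow 1 to 3. Saa1, a serum amyloid, measured 977, 2067 and 8854 CPM in chow 1 to 3, with HFD livers at 1338 to 1859 CPM. Its neighbour Saa2 measured 618, 2033 and 8726 CPM in chow, with HFD at 789 to 1236 CPM. Socs3, a STAT3 target that feeds back on the signal, measured 27.3, 37.1 and 108 CPM in chow, with HFD at 31.5 to 42.5 CPM. Fgb, the beta chain of fibrinogen, measured 3905, 6560 and 16147 CPM in chow, with HFD at 5835 to 7038 CPM. None of the 4 was called between the diets (edgeR adjusted p = 0.512, 0.417, 0.636 and 0.729), and unlike Hamp each of them overlapped between the groups. The part of this response in the Hamp difference was not tested. Erythroid markers, here mostly globins from blood in the tissue, summed to 299, 297 and 540 CPM in chow and 182, 291 and 183 CPM in HFD, so that they too were highest in chow 3.

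**Figure D3:**
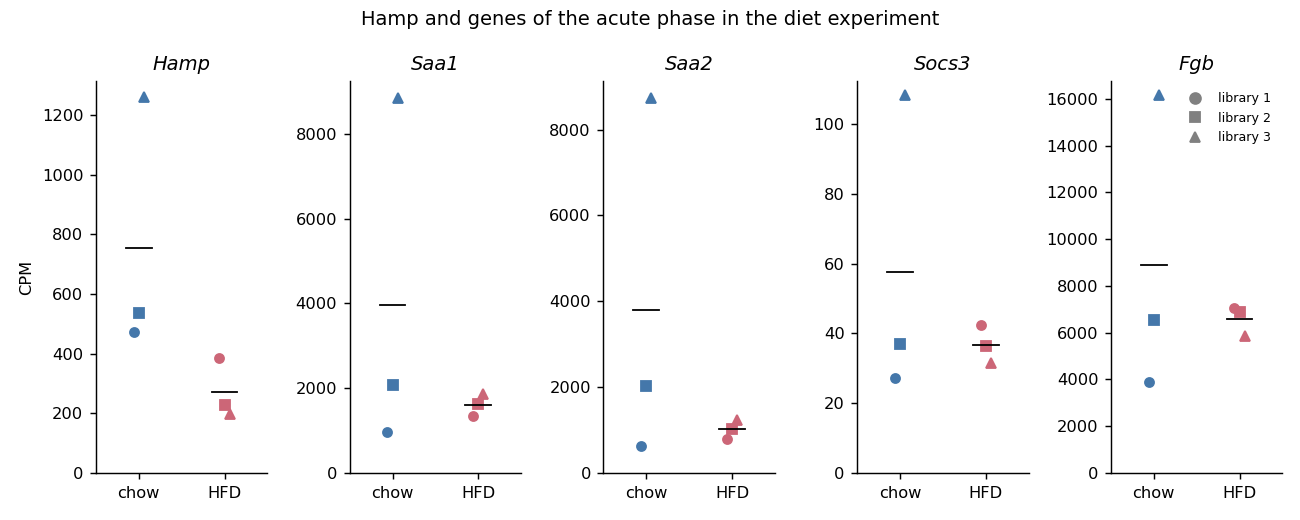
CPM of Hamp, Saa1, Saa2, Socs3 and Fgb in each chow and HFD library (3 per group, linear axes from 0; bars are group means). Chow 3 is the highest library in all 5 panels, and only Hamp has all HFD libraries below all chow libraries.

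In the inhibitor experiment Hamp measured 736, 1196, 1030 and 508 CPM in vehicle livers 1 to 4 and 992, 1032, 1017 and 1195 CPM in SSO livers 1 to 4. The SSO libraries lay close together, with a coefficient of variation of 8.72% against 35.3% in vehicle, near the upper end of the range of the vehicle libraries and inside it. The log2 fold change was 0.29 ± 0.28 (SE; edgeR adjusted p = 0.580). Leaving out any 1 library gave 0.11 to 0.48.

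Hamp2 (ENSMUSG00000056978, chromosome 7: 30922372 to 30924681, minus strand, protein coding) encodes a hepcidin-like peptide for which a role in iron balance has not been shown. It measured 1.28, 1.07 and 1.29 CPM in chow and 0.248, 0.242 and 0.148 CPM in HFD livers, from 50, 41 and 42 counts and 9, 8 and 5 counts. The level was low in all 6 livers, and the groups were far apart for their spread. Hamp2 fell from 1.22 ± 0.124 to 0.213 ± 0.0562 CPM (SD, n = 3 each), a log2 fold change of -2.49 ± 0.47 (SE) or a 5.63-fold lower fitted level (edgeR adjusted p = 0.0298). The call was lost without chow 2, without chow 3 and without any 1 HFD library (edgeR adjusted p = 0.0641 to 0.131), with log2 fold changes of -2.62 to -2.29.

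Vehicle livers 1 to 4 measured 23.2, 89.1, 32.5 and 81.0 CPM of Hamp2, and SSO livers 83.7, 142, 87.1 and 130 CPM. Vehicle 1 and 3 were the low libraries, and vehicle 2 alone reached above the lowest SSO libraries. The log2 fold change was 0.97 ± 0.42 (SE) and was not called (edgeR unadjusted p = 0.0417, adjusted p = 0.227). Leaving out any 1 library gave 0.71 to 1.28 (edgeR adjusted p = 0.0721 to 0.430), the largest without vehicle 2. Without vehicle 1 and 3, the libraries with the highest monocyte markers, the log2 fold change was 0.38 (edgeR adjusted p = 0.504). As Hamp2 itself was lowest in that pair, leaving the pair out makes the difference smaller in any case and cannot test the part of those cells.

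The share of Hamp2 among the counts of both hepcidin genes separates the experiments, since it does not depend on scaling between libraries. It was 0.272%, 0.1998% and 0.102% in chow 1 to 3 and 0.0643%, 0.106% and 0.0745% in HFD 1 to 3. In vehicle 1 to 4 it was 3.05%, 6.93%, 3.06% and 13.8%, and in SSO 1 to 4 it was 7.78%, 12.1%, 7.89% and 9.79%. The lowest share of the inhibitor experiment was thus far above the highest of the diet experiment, and exact binomial 95% intervals, which cover counting error only, ran from 2.83% to 3.28% in vehicle 1 and from 0.202% to 0.358% in chow 1. Within an experiment the groups overlapped. The mean share was 0.191% ± 0.0851 in chow and 0.0816% ± 0.0217 in HFD (exact two-sided permutation p = 0.2 over n = 3 libraries each, smallest possible 0.1), and 6.70% ± 5.05 in vehicle and 9.39% ± 2.02 in SSO (exact permutation p = 0.343 over n = 4 each, smallest possible 0.0286). Adjusted over the 2 comparisons, both were 0.343. The experiments differ in the Xist and Y-linked transcripts given above, in the hours after surgery and in the treatments, and these cannot be told apart as sources of the difference in share.

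**Figure D4:**
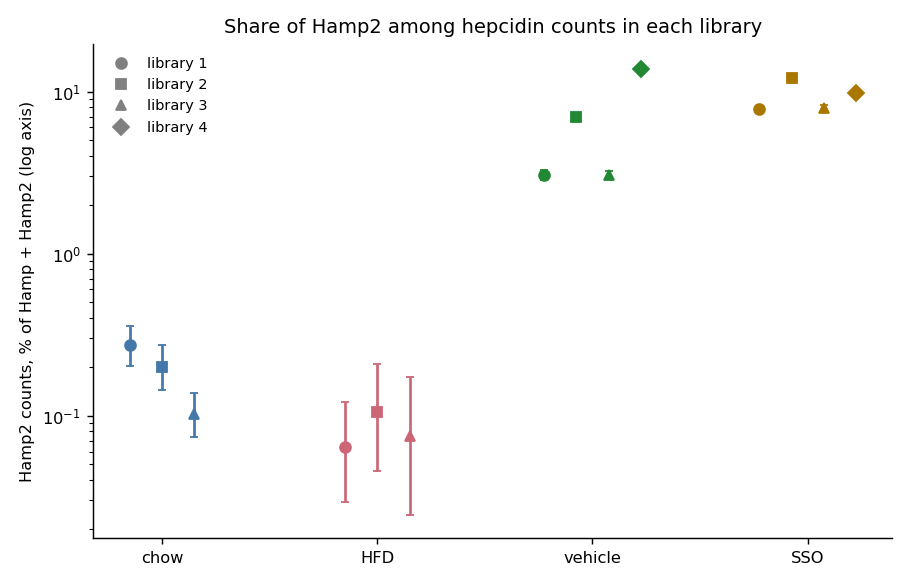
Hamp2 counts as a percentage of the counts of Hamp and Hamp2 in each library, on a log axis, with exact binomial 95% intervals that cover counting error only. The 6 diet livers lie at 0.0643% to 0.272% and the 8 inhibitor livers at 3.05% to 13.8%.

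Reads of these neighbours can be confused. Their longest transcripts were identical at 388 of 410 aligned bases (94.6%). Of the 361 stretches of 50 bases along Hamp, 60 (16.6%) occurred unchanged in Hamp2, 13 of 336 stretches of 75 bases did, and none of 100 or 150 bases. Neither the read length nor the handling of reads that map to several places is given in the sources used here. A misplaced Hamp read weighs most on the low Hamp2 counts of the diet livers. Hamp2 also shares 15.3% of its exon length with Gm44662 on the other strand, a gene with 0 counts in every library.

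Bmp6 (ENSMUSG00000039004, chromosome 13: 38345107 to 38500302, plus strand), the ligand that endothelial cells release when liver iron is high, was the least abundant of the 10 genes per exon length in chow livers. It measured 2.59, 2.75 and 3.07 CPM in chow and 1.79, 2.75 and 1.45 CPM in HFD livers, with HFD 2 among the chow values (log2 fold change -0.49 ± 0.31 SE, edgeR adjusted p = 0.521). Leaving out HFD 2 gave -0.79 and leaving out HFD 3 gave -0.30. It measured 4.33, 1.18, 2.75 and 3.19 CPM in vehicle and 1.08, 2.55, 1.46 and 2.50 CPM in SSO livers, which overlapped widely (-0.59 ± 0.46 SE, edgeR adjusted p = 0.481). Without vehicle 1 it was -0.33, and without vehicle 1 and 3 it was -0.21 (edgeR adjusted p = 0.822 and 0.899). The summed level of 8 markers of sinusoidal endothelial cells, its main source, was 139, 177 and 218 CPM in chow and 138, 138 and 175 CPM in HFD. It was 332, 161, 312 and 152 CPM in vehicle and 204, 298, 165 and 194 CPM in SSO. As these are whole livers, fewer cells of a type and less RNA per cell cannot be told apart.

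Tfr2 (ENSMUSG00000029716, chromosome 5: 137569840 to 137587481, plus strand), the hepatocyte receptor that reads transferrin saturation, was the steadiest of the 10 genes in HFD livers. It measured 553, 805 and 802 CPM in chow and 594, 598 and 583 CPM in HFD livers, a coefficient of variation of 1.32% in HFD against 20.1% in chow. Chow 1 lay below the HFD libraries and chow 2 and 3 above (log2 fold change -0.28 ± 0.19 SE, edgeR adjusted p = 0.526). Tfr2 measured 391, 582, 314 and 562 CPM in vehicle and 481, 555, 484 and 488 CPM in SSO livers. Vehicle 1 and 3 were low and the SSO libraries lay between them and vehicle 2 and 4 (0.12 ± 0.24 SE, edgeR adjusted p = 0.800), and without vehicle 1 and 3 the sign turned (-0.18, edgeR adjusted p = 0.649).

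Other genes that sense iron and pass the BMP signal on were taken from a list of 15, of which 14 were tested. For this and later lists, 15.0% of all genes tested had an unadjusted p under 0.05 in the diet and 20.5% in the inhibitor experiment. DESeq2 called 865 of 16153 and 1137 of 17905 of all genes, and limma-voom 373 of 15589 and 68 of 15788. Of the 14, 2 were higher and 4 lower in HFD livers without overlap, against 21.9% of all genes tested in either direction and 10.8% lower. In HFD livers 1 was called, lower, and the median log2 fold change was 0.00, beside -0.02 over all genes tested. The called gene was Hfe, the haemochromatosis protein that joins the transferrin receptors to the hepcidin signal. It measured 52.2, 58.2 and 62.1 CPM in chow and 38.9, 38.1 and 40.0 CPM in HFD livers. All HFD livers lay close together and below all chow livers. Hfe fell by a log2 fold change of -0.56 ± 0.12 (SE; edgeR adjusted p = 0.0487), and the call was lost with library-size scaling, with limma-voom, without chow 2 or 3 and without any 1 HFD library (adjusted p = 0.0505 to 0.222). Tmprss6, the protease that dampens the signal, lay at 426 ± 35.2 CPM in chow and 424 ± 12.5 CPM in HFD (edgeR adjusted p = 0.992).

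In SSO livers none of the 14 was called by edgeR, with 3 higher and 2 lower at an unadjusted p under 0.05, 2 called by DESeq2 and 0 by limma-voom. Without overlap 2 were higher and 2 lower, against 11.8% of all genes tested in either direction. Hjv, the BMP co-receptor hemojuvelin, listed as Hfe2 in the annotation, had the smallest p. It measured 67.0, 143, 63.7 and 125 CPM in vehicle and 178, 226, 185 and 192 CPM in SSO livers. Every SSO library lay above every vehicle library, and vehicle 1 and 3 were again the low ones (log2 fold change 0.97 ± 0.27 SE, edgeR adjusted p = 0.114). Without that pair it was 0.55 (edgeR adjusted p = 0.197).

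Of 20 further BMP-family ligands, their antagonists and endothelial BMP receptors, 17 were tested in each experiment and none was called by edgeR. In HFD livers 1 had an unadjusted p under 0.05, and DESeq2 and limma-voom called 0. In SSO livers 2 were higher and 3 lower at an unadjusted p under 0.05, with 2 called by DESeq2 and 0 by limma-voom. Gdf15, a stress-induced relative of the BMPs, had the smallest p, at 28.4, 17.5, 33.1 and 14.2 CPM in vehicle and 5.76, 11.6, 6.35 and 7.80 CPM in SSO livers (log2 fold change -1.57 ± 0.31 SE, edgeR adjusted p = 0.0674). Its groups did not overlap, and without vehicle 1 and 3 the difference was -1.002 (edgeR adjusted p = 0.177).

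Id1 (ENSMUSG00000042745, chromosome 2: 152736251 to 152737410, plus strand), an inhibitor of basic helix-loop-helix factors and a direct SMAD target, did not separate the diets. It measured 9.86, 19.5 and 12.2 CPM in chow and 19.96, 11.5 and 12.4 CPM in HFD livers (log2 fold change 0.08 ± 0.30 SE, edgeR adjusted p = 0.943). In the inhibitor experiment it measured 39.4, 12.8, 62.9 and 13.9 CPM in vehicle and 11.0, 15.1, 7.67 and 13.1 CPM in SSO livers. Vehicle 1 and 3 stood above all others, whereas vehicle 2 and 4 lay among the SSO libraries. The log2 fold change was -1.46 ± 0.50 (SE), not called by edgeR (unadjusted p = 0.0170, adjusted p = 0.161) but called by DESeq2 (adjusted p = 0.0331) and by edgeR without vehicle 2 (adjusted p = 0.0409). Without vehicle 1 and 3 it was -0.19 (edgeR adjusted p = 0.803), and without vehicle 3 alone -0.90.

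The libraries with high Id1 were those with the highest markers of recruited monocytes, given above, and of 7 Kupffer cell markers, which summed to 498, 116, 383 and 111 CPM in vehicle 1 to 4 and 193 to 334 CPM in SSO livers. Lyz2, the most abundant of the monocyte markers, measured 189, 23.0, 189 and 41.6 CPM in vehicle and 0.0371 to 11.3 CPM in SSO livers (edgeR adjusted p = 0.129). None of the monocyte or Kupffer markers was at 0 across a group. Vehicle 1 and 3 were also the highest vehicle libraries for endothelial markers, given above, and for the summed markers of stellate cells, cholangiocytes and neutrophils. These were 294, 145, 252 and 162 CPM for 6 stellate markers, 134, 44.3, 163 and 41.2 CPM for 5 cholangiocyte markers and 34.98, 3.95, 58.1 and 5.45 CPM for 5 neutrophil markers in vehicle 1 to 4. The same pair was the lowest in vehicle for summed hepatocyte and erythroid markers. In vehicle 1 to 4, 5 hepatocyte markers summed to 75333, 83023, 64240 and 100716 CPM, and 7 erythroid markers to 52.5, 197, 76.1 and 95.4 CPM. The part of any of these cells in the Id1 difference was not tested. Leaving out vehicle 1 and 3 cannot test it, because Id1 itself was highest in those libraries.

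Smad6 (ENSMUSG00000036867, chromosome 9: 63953076 to 64022059, minus strand), an inhibitory SMAD that blocks BMP receptors, lay lower in both treated groups. It measured 6.93, 9.57 and 9.99 CPM in chow and 6.67, 5.35 and 5.02 CPM in HFD livers, with HFD 1 just under chow 1. The log2 fold change was -0.64 ± 0.22 (SE; edgeR unadjusted p = 0.0175, adjusted p = 0.211). It measured 11.8, 11.9, 13.2 and 6.89 CPM in vehicle and 5.87, 7.35, 5.45 and 6.08 CPM in SSO livers. Vehicle 1, 2 and 3 lay above all SSO libraries, and vehicle 4 lay below SSO 2. The log2 fold change was -0.82 ± 0.24 (SE), not called by edgeR (unadjusted p = 0.00656, adjusted p = 0.126) but called by DESeq2 (adjusted p = 0.0451) and by edgeR without vehicle 4 (adjusted p = 0.0486). Unlike Id1, the difference was -0.60 without vehicle 1 and 3 (edgeR adjusted p = 0.389).

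Smad7 (ENSMUSG00000025880, chromosome 18: 75367529 to 75395935, plus strand), the inhibitory SMAD that acts on both BMP and TGF-beta receptors and is known to repress Hamp, measured 21.2, 26.1 and 20.8 CPM in chow and 17.3, 11.9 and 9.39 CPM in HFD livers. The HFD libraries all lay below the chow libraries. The mean was 22.7 ± 2.93 CPM in chow and 12.9 ± 4.06 CPM in HFD (SD, n = 3 each), a log2 fold change of -0.82 ± 0.22 (SE). It was not called by edgeR (unadjusted p = 0.00528, adjusted p = 0.111), but was by DESeq2 (adjusted p = 0.0295) and by edgeR with no filter on low counts (adjusted p = 0.0138). Smad7 measured 18.2, 13.6, 19.7 and 12.5 CPM in vehicle and 10.5, 19.0, 8.81 and 12.7 CPM in SSO livers, with SSO 2 between vehicle 1 and 3 (-0.33 ± 0.26 SE, edgeR adjusted p = 0.493). The log2 fold change was -0.59 without SSO 2 and -0.18 without SSO 3, and without vehicle 1 and 3 it was -0.03 (edgeR adjusted p = 0.981).

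**Figure D5:**
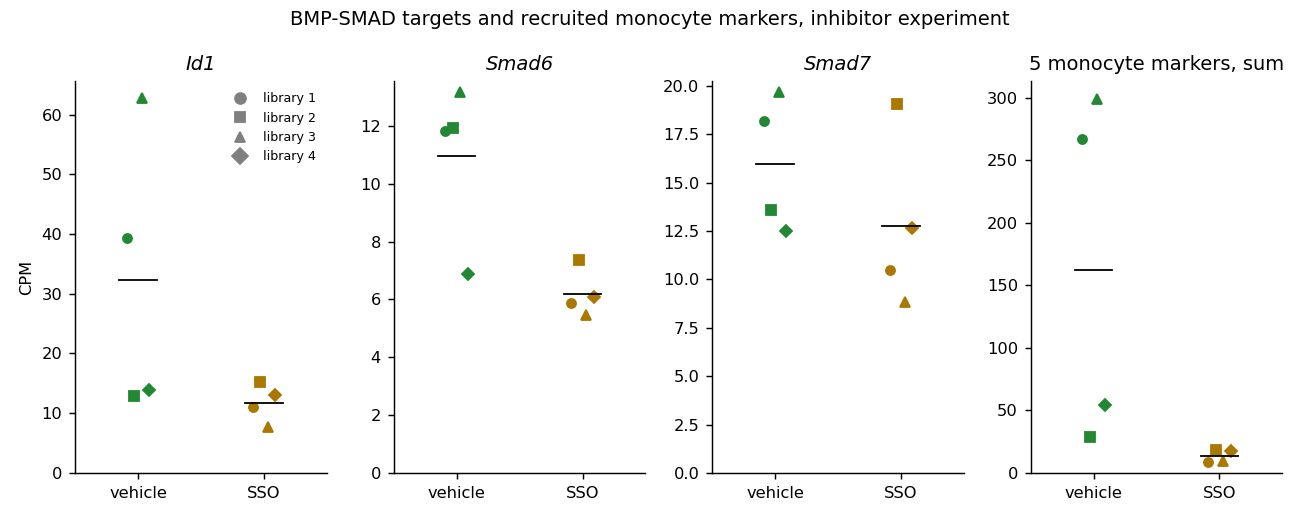
CPM of Id1, Smad6 and Smad7 and the summed CPM of 5 recruited monocyte markers in each vehicle and SSO library (4 per group, linear axes from 0; bars are group means). Vehicle 1 and 3 are high for Id1 and for the markers, while Smad6 is high in vehicle 1, 2 and 3.

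Among 12 further genes that BMP-SMAD signals induce or that act on SMAD proteins, all tested in both experiments, none was called by edgeR. In HFD livers 2 were higher at an unadjusted p under 0.05, Id2 and Dusp6, with 1 called by DESeq2 and 0 by limma-voom, and the median log2 fold change was -0.08. Id2, a relative of Id1, measured 136, 133 and 123 CPM in chow and 213, 164 and 142 CPM in HFD livers, with no overlap (edgeR adjusted p = 0.300). Dusp6, a phosphatase of the ERK kinases, measured 28.1 ± 9.60 CPM in chow and 47.1 ± 6.46 CPM in HFD livers (edgeR adjusted p = 0.161). Id3 measured 154, 84.0 and 190 CPM in chow and 116, 129 and 51.5 CPM in HFD livers, which overlapped. In HFD livers Id1, Id2 and Id3 thus did not lie on one side of chow, while Smad6 and Smad7 did. In SSO livers 1 of the 12 was lower at an unadjusted p under 0.05, Dusp6 (69.0 ± 20.1 CPM in vehicle and 44.7 ± 4.95 CPM in SSO, edgeR adjusted p = 0.151, log2 fold change -0.63 and, without vehicle 1 and 3, -0.21), DESeq2 and limma-voom called 0, and 10 of 12 lay below 0 with a median of -0.34. Atoh8, another target of BMP signals in liver, measured 29.2 ± 5.77 CPM in vehicle and 29.4 ± 4.44 CPM in SSO.

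Tfrc (ENSMUSG00000022797, chromosome 16: 32608920 to 32632794, plus strand) encodes transferrin receptor 1, through which cells take up iron and whose transcript is stabilised when the cell is short of it. It measured 31.1, 22.9 and 22.2 CPM in chow and 27.7, 41.5 and 23.8 CPM in HFD livers, which overlapped (log2 fold change 0.29 ± 0.22 SE, edgeR adjusted p = 0.606). Without HFD 2 the log2 fold change was 0.02, and without chow 1 it was 0.47 (edgeR adjusted p = 0.980 and 0.332). It measured 41.7, 42.3, 42.5 and 67.0 CPM in vehicle and 48.9, 47.0, 54.9 and 56.5 CPM in SSO livers. Vehicle 4 was the highest of all 8, and the SSO libraries lay between it and the other vehicle libraries (0.10 ± 0.18 SE, edgeR adjusted p = 0.783). Without vehicle 4 the log2 fold change was 0.31, and without vehicle 1 and 3 it was -0.08 (edgeR adjusted p = 0.240 and 0.897).

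Slc40a1 (ENSMUSG00000025993, chromosome 1: 45908068 to 45926523, minus strand), which encodes the iron exporter ferroportin, differed little. It measured 76.7, 110 and 89.0 CPM in chow and 87.8, 69.4 and 83.8 CPM in HFD livers (log2 fold change -0.20 ± 0.17 SE, edgeR adjusted p = 0.639). Without chow 2 the difference was -0.04. It measured 129, 59.0, 89.1 and 78.9 CPM in vehicle and 81.3, 84.9, 70.9 and 82.4 CPM in SSO livers (-0.16 ± 0.22 SE, edgeR adjusted p = 0.708). The vehicle libraries enclosed all SSO libraries, and without vehicle 1 and 3 the sign turned (0.21, edgeR adjusted p = 0.634).

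Trf (ENSMUSG00000032554, chromosome 9: 103204001 to 103230444, minus strand), transferrin, was the most abundant of the 10 genes per exon length in every library of the diet experiment. It measured 15738, 22038 and 20589 CPM in chow and 25660, 23833 and 19774 CPM in HFD livers, which overlapped (log2 fold change 0.25 ± 0.23 SE, edgeR adjusted p = 0.669). Without chow 1 the difference was 0.12. It measured 17682, 10164, 9861 and 13420 CPM in vehicle and 8727, 7578, 10036 and 9434 CPM in SSO livers. SSO 3 alone lay above a vehicle library (-0.52 ± 0.29 SE, edgeR adjusted p = 0.342), and without vehicle 1 the difference was -0.32. On the same strand, 63.5% of its exon length overlaps Gm20425, a read-through gene model, so its counts depend on how reads shared by gene models were handled, which is not given.

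Further genes of iron transport and storage numbered 23, of which 20 were tested in each experiment, and edgeR called none. In HFD livers 4 were lower and 1 higher at an unadjusted p under 0.05, with 2 called by DESeq2 and 0 by limma-voom, and 6 of the 20 were lower and 1 higher without overlap, against 10.8% of all genes tested lower and 21.9% in either direction. Slc25a37, mitoferrin, which carries iron into mitochondria, had the smallest p at 70.6 ± 10.0 CPM in chow and 45.9 ± 6.80 CPM in HFD (edgeR adjusted p = 0.0878). The ferritin heavy chain Fth1, part of the shell that stores iron, measured 2147, 2227 and 2440 CPM in chow and 1411, 1649 and 1750 CPM in HFD livers, with no overlap (log2 fold change -0.50 ± 0.17 SE, edgeR adjusted p = 0.214). In SSO livers 3 were lower and 1 higher at an unadjusted p under 0.05, with 2 called by DESeq2 and 0 by limma-voom. Steap4, a metal reductase, measured 200, 77.8, 106 and 110 CPM in vehicle and 46.9, 41.6, 66.0 and 44.5 CPM in SSO livers, with no overlap (-1.31 ± 0.28 SE, edgeR adjusted p = 0.0866).

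A list of 9 genes of iron and oxygen sensing included the iron regulatory proteins, which act on Tfrc and ferritin transcripts. All 9 were tested, and edgeR called none in either experiment. Ireb2, an iron regulatory protein, had the smallest p in the diet comparison and was the only one of the 9 with an unadjusted p under 0.05 there, at 67.5 ± 1.98 CPM in chow and 82.1 ± 6.51 CPM in HFD (edgeR adjusted p = 0.311), and DESeq2 and limma-voom called 0. In SSO livers 1 was higher and 2 lower at an unadjusted p under 0.05, with 1 called by DESeq2 and 0 by limma-voom. Egln1, an oxygen-sensing prolyl hydroxylase, had the smallest p there, at 24.5 ± 4.13 CPM in vehicle and 14.5 ± 2.01 CPM in SSO (edgeR adjusted p = 0.0973).

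Heme is the main product made from iron, and its 8 synthesis enzymes were all tested. None was called by edgeR in HFD livers, with 2 lower at an unadjusted p under 0.05, 1 called by DESeq2 and 0 by limma-voom. Alas1, which catalyses the first and limiting step, measured 1035, 1154 and 653 CPM in chow and 309, 218 and 483 CPM in HFD livers, with no overlap (log2 fold change -1.49 ± 0.32 SE, edgeR adjusted p = 0.0573). It is close to the size of the Hamp difference, and was called by DESeq2 and by edgeR without chow 3 (adjusted p = 0.0315) or HFD 3 (adjusted p = 0.0480). None was called in SSO livers, with 1 higher at an unadjusted p under 0.05, Ppox, at 42.6 ± 5.18 CPM in vehicle and 73.4 ± 8.56 CPM in SSO (edgeR adjusted p = 0.0648), which DESeq2 called and limma-voom did not. Of 12 genes that bind or break down heme and haemoglobin, all tested, edgeR, DESeq2 and limma-voom called none in either experiment. In HFD livers 0 of them and in SSO livers 2 had an unadjusted p under 0.05. The smallest p belonged to Blvrb, a biliverdin reductase, in HFD livers (92.6 ± 13.0 to 74.4 ± 10.4 CPM, edgeR adjusted p = 0.399) and to Hmox1, heme oxygenase, in SSO livers (56.4 ± 45.9 to 21.0 ± 5.22 CPM, log2 fold change -1.42, edgeR adjusted p = 0.225). The sign of the Hmox1 difference turned without vehicle 1 and 3 (0.33, edgeR adjusted p = 0.577).

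Of 22 genes of the IL-6 and STAT3 input to Hamp and of the acute phase, 21 were tested in the diet experiment. EdgeR, DESeq2 and limma-voom called none there, and 2 were lower at an unadjusted p under 0.05. Cebpb, a transcription factor of the acute phase response, had the smallest p at 228 ± 20.6 CPM in chow and 149 ± 42.4 CPM in HFD (edgeR adjusted p = 0.205). Il6 itself was too low to be tested, with 2, 2 and 1 counts in chow and 13, 12 and 5 counts in HFD livers. Every HFD library lay above every chow library, with means of 0.0448 CPM in chow and 0.290 CPM in HFD, the opposite direction to Hamp. The counts are few, and the part of Il6 in the Hamp difference was not tested.

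All 22 were tested in the inhibitor experiment and edgeR called 1, Il6, which fell. At an unadjusted p under 0.05 there were 5 higher and 5 lower, DESeq2 called 6 and limma-voom 0, and 4 were higher and 5 lower without overlap, against 11.8% of all genes tested without overlap in either direction. Il6 had 32, 28, 21 and 20 counts in vehicle and 1, 1, 1 and 2 counts in SSO livers. The 101 vehicle counts against 5 SSO counts gave a ratio of 18.9, with a 95% counting interval of 7.82 to 59.3 (edgeR adjusted p = 0.0369). The call was lost with limma-voom, without vehicle 1, vehicle 3 or any 1 SSO library, and without vehicle 1 and 3 together (adjusted p = 0.0723 to 0.170). Hamp, as given above, was not called, and its SSO libraries lay within the vehicle range at 992 to 1195 CPM. Socs3 measured 15.7 ± 4.44 CPM in vehicle and 15.0 ± 3.59 CPM in SSO (edgeR adjusted p = 0.902). Stat3, which carries the signal, measured 131, 134, 85.03 and 132 CPM in vehicle and 89.7, 81.8, 95.4 and 93.6 CPM in SSO, with vehicle 3 among the SSO values (log2 fold change -0.42 ± 0.18 SE, edgeR unadjusted p = 0.0400, adjusted p = 0.223). Fgb measured 4714, 2985, 3659 and 3639 CPM in vehicle and 2833, 2357, 2914 and 2831 CPM in SSO, lower without overlap (-0.46 ± 0.24 SE, edgeR adjusted p = 0.313). Saa1 measured 89.8, 19.0, 64.2 and 82.0 CPM in vehicle and 27.3, 510, 31.5 and 271 CPM in SSO, so that SSO 2 and 4 were high. The same pair held the highest Hamp levels of the SSO livers, at 1032 and 1195 CPM against 992 and 1017 CPM, so that SSO 2 and 3 hardly differed. Vehicle livers went the other way. Vehicle 2 had the highest Hamp, 1196 CPM, with the lowest Saa1, and vehicle 4 the lowest Hamp, 508 CPM, with Saa1 at 82.0 CPM. The part of the acute phase genes in the Hamp levels was not tested.

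Over all 8 lists, 113 of 121 genes were tested in the diet and 114 in the inhibitor experiment, and edgeR called 1 in each, lower both times. At an unadjusted p under 0.05 there were 15 (13.3%, against 15.0% of all genes tested) in HFD livers, 5 higher and 10 lower. In SSO livers there were 31 (27.2%, against 20.5% of all genes tested), 14 higher and 17 lower. Of these list genes, 5 and 14 were called by DESeq2 and 0 by limma-voom in either experiment. Over all genes tested, DESeq2 called 865 of 16153 in the diet and 1137 of 17905 in the inhibitor experiment. Limma-voom called 373 of 15589 and 68 of 15788. Of the cell type markers, 45 tested in the diet and 46 in the inhibitor experiment, edgeR called none. In each experiment 9 had an unadjusted p under 0.05, beside 15.0% of all genes tested in the diet and 20.5% in the inhibitor experiment. The largest groups among them were 4 of 5 tested erythroid markers, lower in HFD, and 4 of 5 monocyte markers, lower in SSO livers. DESeq2 called 9 and 5 of the markers and limma-voom 1 and 0, beside the counts over all genes just given. From chow to HFD livers, the most abundant markers had means of 52.9 and 39.3 CPM for Stab1 (endothelial), 56.8 and 84.7 CPM for Cd5l (Kupffer), 3.16 and 3.70 CPM for Csf3r (neutrophil), 206 and 137 CPM for Dcn (stellate), 54.1 and 85.0 CPM for Spp1 (cholangiocyte) and 147 and 74.96 CPM for Hbb-bs (erythroid). From vehicle to SSO livers they were 79.0 and 69.5 CPM for Stab1, 70.04 and 104 CPM for the Kupffer marker Clec4f, 16.2 and 6.65 CPM for Csf3r, 100.4 and 109.8 CPM for Dcn, 83.5 and 28.0 CPM for Spp1 and 42.4 and 24.8 CPM for the globin Hba-a1.

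Genes whose levels followed Hamp most closely were sought among 8166 genes over 14 libraries, by Pearson's r of log2 CPM after centring each gene within its experiment. Such values share the libraries and their composition and describe likeness only. The 5 closest to Hamp were Wdr83 (r = 0.86), a WD-repeat protein, Cyp26a1 (0.83), which degrades retinoic acid, the ribosomal gene Fau (0.82), Tha1 (0.82), a threonine aldolase, and the zinc finger gene Zfp281 (0.81). Likeness differed between the experiments for Fau, at 0.98 over the 6 diet and 0.11 over the 8 inhibitor libraries, and less for Cyp26a1, at 0.84 and 0.82. Cyp26a1 measured 41.8 CPM in chow and 4.95 CPM in HFD livers and 29.0 CPM in vehicle and 45.9 CPM in SSO livers. That is the same order as Hamp in both comparisons, which the choice by likeness largely fixes, since centring left the differences between groups in. The 5 closest to Id1 were Elmo2 (0.94), Dgkd (0.93), Bahd1 (0.93), Rps6ka4 (0.93) and Slc44a2 (0.92). Their r was 0.93 to 0.97 over the inhibitor libraries, where vehicle 1 and 3 set Id1 apart, and 0.53 to 0.91 over the diet libraries.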

How the data were processed

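Libraries were made from polyT-selected RNA of whole liver, per the labels' protocols. The deposited values are raw read counts for each Ensembl gene, whole numbers whose totals differ between libraries. The submitters' processing notes name featureCounts 2.0.2, HISAT2 2.2.1, Trim Galore 0.6.1 and DESeq2, with build GRCm38. Neither the strand setting nor the read length or treatment of multi-mapping reads is given in the sources used here. The sorted macrophage and single-cell samples were not analysed here.

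As the labels hold 1 record per group, columns were assigned by their names. Whether the columns of the inhibitor table are separate animals is not stated, and its p-values cover only the spread between libraries, which may be technical. No number of mice is recorded here for the diet experiment, so the same limit holds for its columns. Numbered livers in the text stand for libraries. No pair of libraries agreed within sampling noise.

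Each table was fitted on its own with edgeR 4.0.16 (R 4.3.3; robust quasi-likelihood test, TMM scaling, filterByExpr, Benjamini-Hochberg over all genes tested). CPM uses TMM-scaled library sizes; RPKM divides it by the union of GENCODE M21 exons, which also gave symbols (55141 of 55487 identifiers) and coordinates (1-based). Total counts per library were 25.2 to 39.9 M. The scripts were tested on simulated data, in which all genes shared a common spread between libraries, so the rates may not hold for single genes. There the edgeR test made 10 false calls in the diet and 3 in the inhibitor design. It called 35 of 100 true 2-fold changes in the diet and 7 of 100 in the inhibitor design. Of 100 true 4-fold changes it called 97 and 81. A difference that was not called is therefore no sign of equal levels. Alternatives were library-size scaling, DESeq2 1.42.0, limma-voom (limma 3.58.1), no filter, mitochondrial genes left out, each library left out and vehicle 1 and 3 left out. A fit with the column number as a block was added after seeing the data. The genes and lists were chosen with earlier results of these data known. Named genes were all 10 members, from each of 8 pathway lists the called genes (up to 4) or the one of smallest p, and the 5 most like Hamp and Id1 among genes with a known symbol whose mean reached 3 on the log2 CPM scale in both experiments (pseudocount 0.5 CPM). A gene that this rule names is not reported here. From each of 8 cell type marker lists the most abundant gene was named; Hfe2 is the older symbol of Hjv. Other genes named (Saa1, Saa2, Socs3, Stat3, Fgb, Id2, Id3, Atoh8, Fth1, Tmprss6 and the Il6 counts in the diet livers) were chosen after their values were seen.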

Additional observations from a re-analysis of the deposited data

Results flagged for a closer look

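In the groups of 4 libraries, the level of each of the 10 genes was checked for a library that stands apart from the other 3 (Dixon's test at its 95% level); over the 20 groups checked, chance alone flags about 1 in 20. Tfrc in vehicle 4 stood at 67.0 CPM, above the other vehicle livers at 41.7 to 42.5 CPM, with a gap of 0.97 of the whole range. Tfr2 in SSO 2 stood at 555 CPM, above the other SSO livers at 481 to 488 CPM, with a gap of 0.91 of the range.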

How the results depend on the processing

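In the diet comparison 1 of the 10 genes was called, and DESeq2 and the fit with no filter on low counts called 2, Hamp2 and Smad7. Leaving out 1 library gave 0 to 1. In the inhibitor comparison 0 were called; DESeq2 called 2, and leaving out 1 library gave 0 to 1, with 1 without vehicle 2 (Id1) and 1 without vehicle 4 (Smad6). The called differences of Hamp2, Hfe and Il6 kept their sign under all alternatives run. Among uncalled differences, Id1 in HFD livers turned to -0.21, -0.11 and -0.01 without HFD 1, chow 1 and chow 3, and with library-size scaling Tfrc in SSO livers turned to -0.05. Without vehicle 3 Tfr2 turned to -0.02, and without vehicle 1 Slc40a1 turned to 0.07. Calls over all genes tested numbered 865 (DESeq2), 672 (no filter) and 86 to 681 (1 library left out) against 361 in the diet comparison. They numbered 1137, 205 and 0 to 2646 against 71 in the inhibitor comparison, with 0 without vehicle 1 or any 1 SSO library and 2646 without vehicle 2. The cause was not tested. With 3 or 4 libraries per group, and 5 to 9 counts of Hamp2 in HFD livers, small differences could not be resolved. Columns of both groups carry the numbers 1 to 3 or 1 to 4, but nothing in the labels says that equal numbers mark pairs. Same-numbered libraries deviated from their group means with r of -0.11 to 0.02 over genes in the diet and -0.07 to 0.03 in the inhibitor comparison, and not every library correlated best with its own number. A replicate block on that number, chosen after seeing the data, called 0 of the 10 genes in each comparison (Hamp2 in HFD livers at -2.51, edgeR adjusted p = 0.0925), and 206 and 47 of all genes tested.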
